A study of Arabidopsis thaliana with 4 samples.

Results

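AT1G30720 and AT1G30730 are 2 neighbouring Arabidopsis genes of the berberine bridge enzyme-like (BBE-like) family. They were chosen by name from an annotation of the array probes, with the knowledge that both had low ratios in the mutant. Each had 1 probe, so they make up 2 of 9253 named genes and 2 of 9335 probes assigned to 1 gene, among 22575 probes in all. The arrays compared roots of the Arabidopsis thaliana mutant nai1-1 with roots of the wild type Col-0. nai1-1 lacks ER bodies, spindle-shaped compartments of the endoplasmic reticulum that Brassicaceae fill with beta-glucosidases. Plants of both genotypes were 20 days old, were untreated and shared a plate of MS medium with 1% sucrose and 0.5% gellan gum at 22 °C in continuous light. RNA came from 3 pooled plants for each genotype. The labels name no other allele or transgene in either group.

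BBE-like enzymes are flavin-dependent oxidases, usually secreted, named after the enzyme that closes the berberine bridge of benzylisoquinoline alkaloids in poppies. Arabidopsis does not make those alkaloids, and characterised members of its family instead oxidise cell wall oligosaccharides, monolignols or indole compounds. Those that act on cell wall oligosaccharides pass electrons to oxygen and give hydrogen peroxide. Many members lie side by side in the genome as blocks of neighbouring genes, and several are known from defence and wound responses. No substrate is given here for AT1G30720 or AT1G30730.

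Both genotypes were hybridised together on each of 4 two-colour arrays. The mutant was labelled with Cy3 for arrays 1 and 4, and with Cy5 for arrays 2 and 3. Values are given as log2 of the nai1-1 level over the Col-0 level, so -1 means a level 2-fold lower in the mutant. This direction and the log base follow the usual output of the extraction software and are not stated by the submitters. Under the opposite convention every sign below would turn. The labels number the arrays as replicates without saying whether they came from separate plant pools, so the p-values cover only the spread from array to array, possibly a technical one. Precision is limited by the number of arrays. Intensities were not analysed here, so it is not known how abundant either transcript was, and root identity could not be checked from marker levels. Fewer cells of a type and less RNA per cell cannot be told apart in such whole-root RNA.

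AT1G30720 had ratios of -1.62 on array 1, -1.69 on array 2, -1.39 on array 3 and -1.47 on array 4. Its mean was -1.54 ± 0.14 (SD, n = 4), a 2.91-fold lower level in nai1-1, with a 95% interval from the fit of -1.80 to -1.29. All 4 arrays were below 0, and the span from the lowest to the highest array was 0.30.

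AT1G30730 had ratios of -1.49, -1.63, -1.59 and -1.67 on arrays 1 to 4. Its mean was -1.60 ± 0.07 (SD, n = 4), a 3.03-fold lower level, with an interval of -1.82 to -1.38. The 4 arrays lay within 0.18 of each other, the tighter set of the pair. Among named probes its SD was the 416th smallest of 9335, and that of AT1G30720 the 1905th smallest. These ranks are a description only, as the pair was chosen on the same ratios. The median SD over named probes was 0.225.

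The pair differed little on any array. The ratio of AT1G30720 minus that of AT1G30730 was -0.13 on array 1, -0.06 on array 2, 0.21 on array 3 and 0.20 on array 4, with a mean of 0.05 ± 0.17 (SD, n = 4). AT1G30720 was the lower of the pair on arrays 1 and 2 and the higher on arrays 3 and 4. The order of the pair was thus not the same on every array, and its mean difference was smaller than the spread. Both genes were chosen with their low ratios known, so nothing is read from this closeness.

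Ordered by mean ratio from the lowest, AT1G30730 was 53rd and AT1G30720 57th among the 9335 named probes, and they were 97th and 107th among all 22575 probes. On single arrays AT1G30720 was 33rd, 42nd, 98th and 95th among named probes on arrays 1 to 4. AT1G30730 was 38th, 53rd, 75th and 78th. Both were thus nearer the low end on arrays 1 and 2 than on arrays 3 and 4. Arrays 1 and 2 had the wider spread of ratios over all probes, with median absolute deviations of 0.388 and 0.325 against 0.218 and 0.185. The mean of AT1G30720 was -1.65 on arrays 1 and 2, below its -1.43 for arrays 3 and 4, while for AT1G30730 these means were -1.56 and -1.63.

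Both probes were among the 54 named probes called lower by limma at an adjusted p under 0.05. The background is 0.578% of named probes and 0.483% of all 22575 probes, while 0.0133% of all probes were called higher. The pair was chosen on this contrast, so nothing is read from that count, and no p-value is given for it. Without any single array, 1, 2, 3 or 4, limma called 0 probes in all, while the ratio of AT1G30720 stayed between -1.62 and -1.47 and that of AT1G30730 between -1.64 and -1.55. Limma also called 0 probes, the pair included, when arrays 1 and 2 and arrays 3 and 4 were averaged as replicates and when the arrays were scaled to equal spread. The ratios in those fits were -1.54 and -1.58 for AT1G30720 and -1.60 and -1.68 for AT1G30730. Of named probes, 155, or 1.66%, had a mean at least 2-fold lower.

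The dye, which the choice of genes did not use, was tested for each probe in the same fit. The estimated effect of Cy5 over Cy3 was 0.01 ± 0.09 (SE) for AT1G30720 (limma adjusted p = 0.996), with a 95% interval of -0.25 to 0.26. For AT1G30730 it was -0.01 ± 0.08 (limma adjusted p = 0.98), with an interval of -0.23 to 0.21. With nai1-1 in Cy3 the means were -1.55 for AT1G30720 and -1.58 for AT1G30730, and with nai1-1 in Cy5 they were -1.54 and -1.61. Reversing the dyes thus left both ratios nearly where they were. In that fit limma called a dye effect for 0 probes, with 1217 (5.39%) at an unadjusted p under 0.05. Fitted without the 1016 probes that held an exact 0 on at least 1 array, the dye effect was called for 258 probes at the adjusted threshold.

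**Figure D1:**
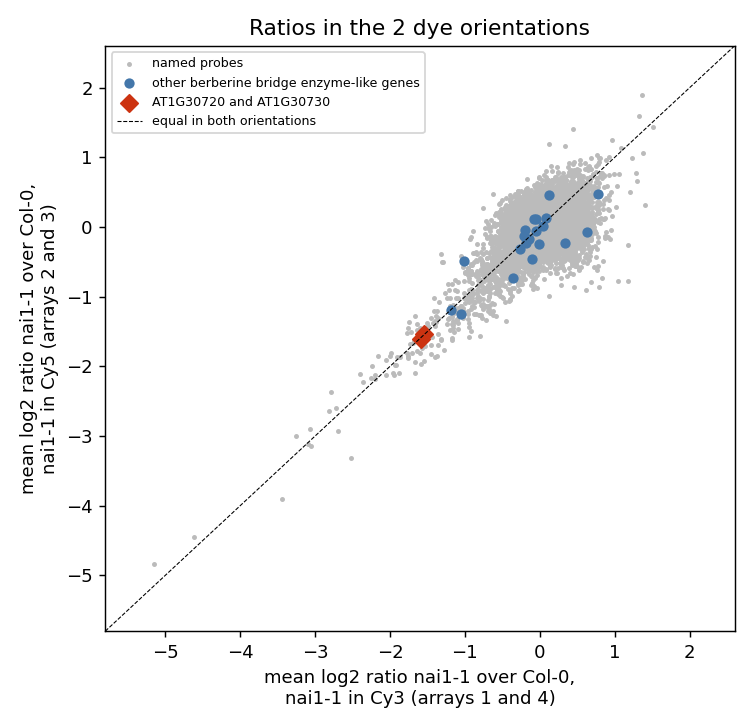
Mean log2 ratio of nai1-1 over Col-0 on arrays 1 and 4 (nai1-1 in Cy3, horizontal axis) against arrays 2 and 3 (nai1-1 in Cy5, vertical axis). Grey points are named probes, blue points the other BBE-like genes and red diamonds the pair, which lies close to the dashed line of equal values at -1.55 and -1.54 for AT1G30720 and -1.58 and -1.61 for AT1G30730.

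The pair sits inside a block of BBE-like genes on chromosome 1. In the RefSeq gene order AT1G30700 and AT1G30710 come just before it and AT1G30740 just after, with AT1G30760 a few loci further on. All 6 genes of this block had a named probe, and their mean ratios ran from -1.60 to 0.28. The genes that touch the pair on either side had ratios near 0. AT1G30710 was at 0.21, 0.10, -0.06 and -0.12 on arrays 1 to 4, with a mean of 0.03 and a 95% interval of -0.24 to 0.30 (limma adjusted p = 0.928). AT1G30740 was at -0.26, -0.25, 0.00 and -0.16, with a mean of -0.17 and an interval of -0.41 to 0.07 (limma adjusted p = 0.514). Both intervals lie above all 4 array values of AT1G30720 and of AT1G30730. Because the pair was chosen with those low values known, this only describes the block.

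AT1G30700, the next gene beyond AT1G30710, lay between these levels. It had ratios of -1.36, -0.90, -0.08 and -0.66 on arrays 1 to 4 and a mean of -0.75 ± 0.53 (SD, n = 4). It was below 0 on all 4 arrays but did not pass the threshold (limma adjusted p = 0.253), and its array 3 was close to 0 while AT1G30720 and AT1G30730 were at -1.39 and -1.59 there. AT1G30760, an enzyme known to oxidise monolignols, was at 0.82, -0.36, 0.23 and 0.43, with a mean of 0.28 ± 0.49 (SD, n = 4; limma adjusted p = 0.503). Cross-hybridisation among these related transcripts was not assessed, since no probe sequence was used here.

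Of the 20 loci nearest the pair, 10 on each side, 9 had a named probe. Their median ratio was 0.03 and their range was -0.75 to 0.28. Limma called 0 of them in either direction, beside 0.483% of all probes lower and 0.0133% higher. At an unadjusted p under 0.05, 2 were lower and 0 higher, where 7.31% and 5.59% of all probes were. Those 2 were AT1G30700 and AT1G30640, at -0.25. The other neighbours outside the family were AT1G30630 at 0.21, AT1G30690 at 0.28, AT1G30750 at 0.17 and AT1G30780 at -0.04.

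**Figure D2:**
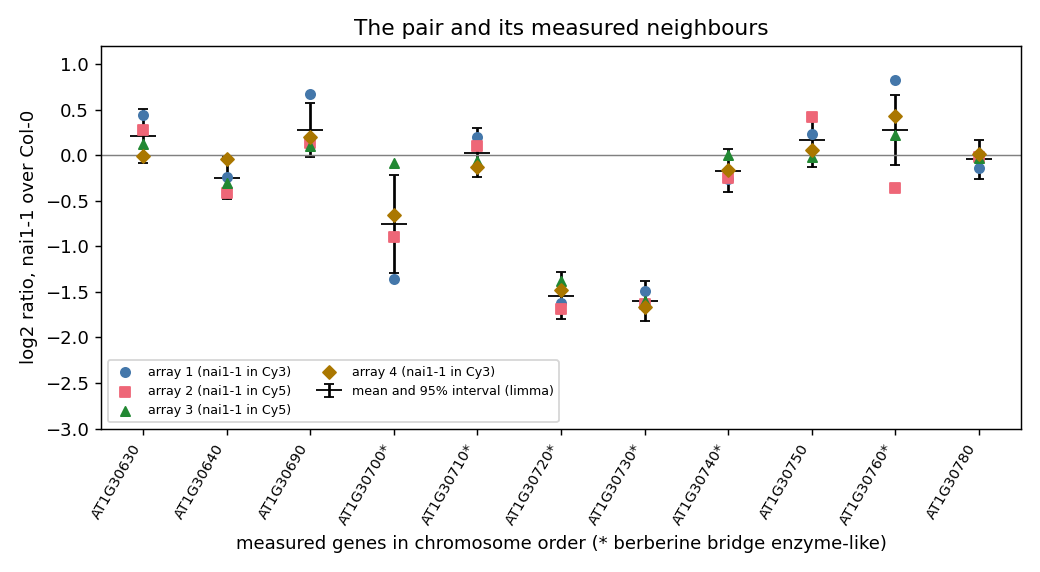
Log2 ratio of nai1-1 over Col-0 (vertical axis) for the pair and the 9 measured genes among the 10 loci on each side, in chromosome order and evenly spaced. Symbols are the 4 arrays and black bars the mean with its 95% interval from limma. The pair stands near -1.5 to -1.6, AT1G30710 and AT1G30740 beside it stand at 0.03 and -0.17, and AT1G30700 is spread from -1.36 to -0.08.

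Across the genome 2840 pairs of adjacent loci had a named probe for both genes, and in 3 of them both genes were called lower. Besides AT1G30720 and AT1G30730 these were JAL33 (-4.53) with JAL34 (mean of its probes -1.58, of which 1 was called), genes for jacalin-related lectins, and FAMT (-1.39) with AT3G44870 (-2.20), where FAMT encodes a farnesoic acid methyltransferase. In 31 further pairs 1 gene was called lower. The pair was chosen as neighbours with low ratios, so this is a description only.

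The rest of the family was compared next. The list used here holds 27 BBE-like loci, of which 22 were measured, 20 of them besides the pair. AT1G01980, AT1G26400, AT1G34575, AT2G34790 and AT4G20820 lacked a named probe and are left out. Of the 20 other genes limma called 0 lower and 0 higher, beside the background of 0.483% and 0.0133% of all probes, with 5 lower and 1 higher at an unadjusted p under 0.05. At that unadjusted threshold 7.31% of all probes were lower and 5.59% higher. The median ratio of these 20 genes was -0.12, against 0.02 over all named probes, and they ran from -1.19 to 0.62. The 20 means therefore all lay above those of AT1G30720 and AT1G30730. The pair was chosen with its low ratios known, so nothing is read from this order. Array medians of the 20 genes were -0.06, -0.38, -0.00 and -0.14. Below 0 on all 4 arrays were 5 of the 20, where 12.2% of named probes were.

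The other genes closest to the pair in ratio were AT5G44360 and AT4G20860. AT5G44360 had -0.92, -1.25, -1.14 and -1.43 on arrays 1 to 4, with a mean of -1.19 ± 0.21 (SD, n = 4), a 2.28-fold lower level. It narrowly missed the threshold (limma adjusted p = 0.0583). Its array 4 reached the range of AT1G30720, and its other arrays were higher than all arrays of the pair.

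AT4G20860, known as an oxidase of cellulose fragments (cellodextrins), had -0.71, -1.30, -1.20 and -1.40 on arrays 1 to 4. Its mean was -1.15 ± 0.31 (SD, n = 4), 2.23-fold lower (limma adjusted p = 0.0776). As with AT5G44360, array 1 was the highest of the 4. When the probes holding an exact 0 were left out before fitting, both passed (limma adjusted p = 0.00521 for AT5G44360 and 0.00821 for AT4G20860). In that fit 2 of the 20 genes were lower and 0 higher, beside 2.99% of 21559 probes lower (3.5% of named probes) and 0.617% higher. Over all 10 alternatives the adjusted p ran up to 0.447 for AT5G44360 and 0.457 for AT4G20860, both without array 2. None of the 20 genes held an exact 0, so their own ratios were the same in both fits.

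Limma called 0 of the 3 measured oxidases of pectin fragments, where 0.483% of all probes were called lower and 0.0133% higher. AT4G20830, known to oxidise oligogalacturonides released from pectin, was at 0.13, -0.48, -0.99 and -0.83, with a mean of -0.54 (limma adjusted p = 0.387). AT4G20840, which acts on the same substrates and lies beside it, was at 0.02 with a 95% interval of -0.27 to 0.30. AT1G11770, also an oligogalacturonide oxidase, was at -0.06 with an interval of -0.27 to 0.16. All 3 intervals, that of AT4G20830 being -1.09 to -0.00, lie above every array value of the pair. Since the pair was chosen with its low ratios known, this is no test of a difference.

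AT1G26380, an enzyme of indole cyanogenic defence compounds, was at -0.29, with a range of -0.52 to -0.07 over the arrays (limma adjusted p = 0.27). The other measured genes of its block were AT1G26420 at -0.29, AT1G26390 at 0.05 and AT1G26410 at 0.11. In the block on chromosome 5 the genes beside AT5G44360 were spread: AT5G44380 was at -0.15, AT5G44390 at -0.12, AT5G44410 at 0.03, AT5G44440 at -0.12 and AT5G44400 at 0.62. AT5G44400, the highest of the family, was above 0 on all 4 arrays, from 0.02 on array 2 to 0.92 on array 3 (limma adjusted p = 0.281). AT4G20800 was at 0.29 and AT2G34810 at -0.21.

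The 20 genes included 15 with a mean within 0.3 of 0, whose 95% intervals reached at most from -0.84 to 0.67. Ratios varied within blocks of neighbouring BBE-like genes. The 4 measured genes of the block at AT1G26380 ran from -0.29 to 0.11, the 4 at AT4G20830 from -1.15 to 0.29, and the 6 at AT5G44360 from -1.19 to 0.62.

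**Figure D3:**
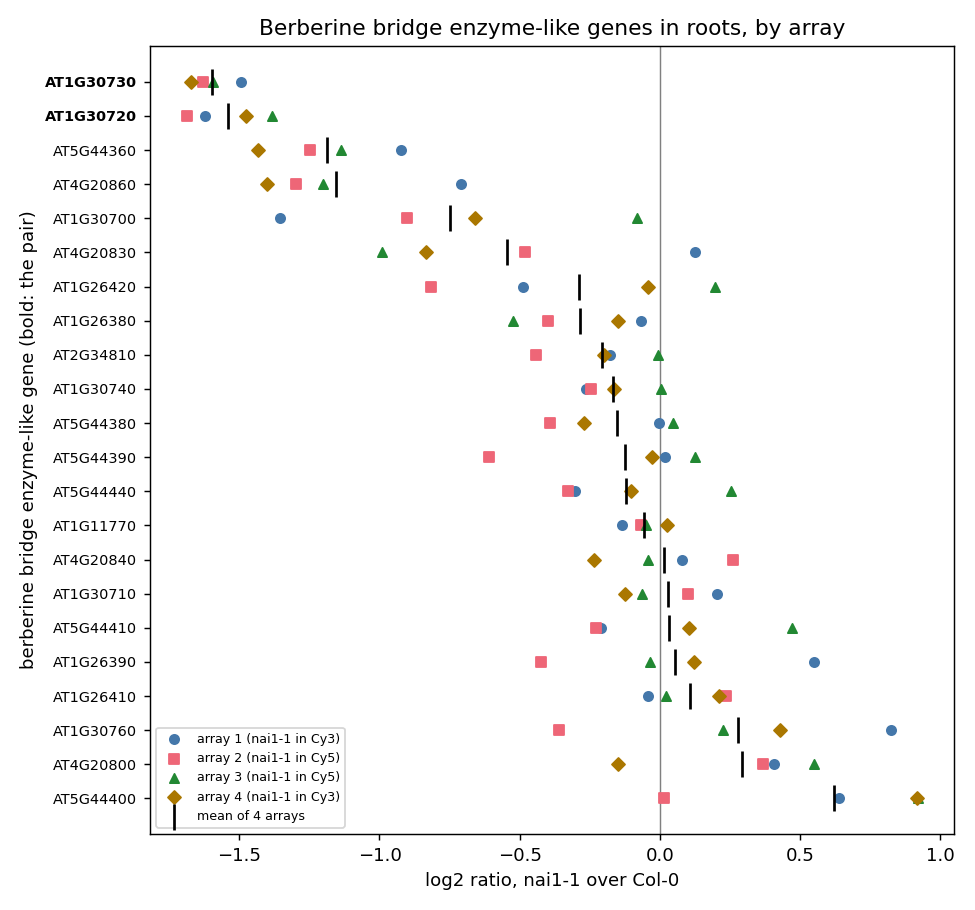
Log2 ratio of nai1-1 over Col-0 (horizontal axis) for the 22 measured BBE-like genes, ordered by mean. Symbols are the 4 arrays and black bars their means. AT1G30730 and AT1G30720, in bold, have all arrays between -1.69 and -1.39, AT5G44360 and AT4G20860 follow at -1.19 and -1.15, and most other genes scatter around 0.

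The genes with the most similar ratios were found by distance, the root of the summed squared differences over the 4 arrays, among named probes. This describes likeness in these arrays alone. For AT1G30720 the nearest were AT1G09510 at a distance of 0.243, AT1G63750 at 0.314, AT1G30730 at 0.319, AT5G26290 at 0.375 and AT4G19510 at 0.447. AT1G63750 and AT4G19510 belong to the TIR-NBS-LRR class of immune receptor genes. For AT1G30730 they were AT1G54010 (GLL23, a GDSL-like lipase) at 0.244, AT1G30720 at 0.319, the methionine sulfoxide reductase gene MSRB8 at 0.335, the purine permease gene PUP18 at 0.382 and AT5G26290 at 0.394. Each gene of the pair was within the 3 nearest of the other. This distance depends on the level of the ratios, and the pair was chosen with both levels known to be low. Nothing is therefore read from that nearness. The only other gene on both lists was AT5G26290, at -1.51, -1.58, -1.22 and -1.77 on arrays 1 to 4. AT1G54010 was at -1.32 on array 1 and between -1.75 and -1.71 on the others.

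**Figure D4:**
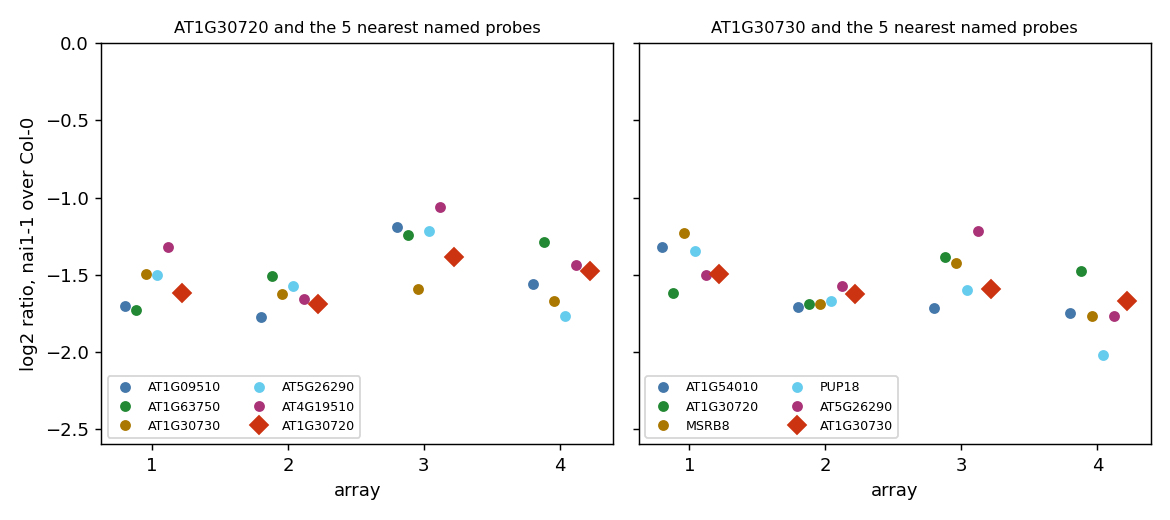
Log2 ratio of nai1-1 over Col-0 (vertical axis) on each array (horizontal axis) for AT1G30720 (left, red diamonds) and AT1G30730 (right, red diamonds) with the 5 named probes nearest to each (circles, set side by side for legibility). AT1G30720 stays between -1.69 and -1.39 and AT1G30730 between -1.67 and -1.49.

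Reference genes of the mutant put these ratios in scale. NAI1, the transcription factor gene mutated in nai1-1, was at -0.77, -1.21, -0.21 and -0.60, and the position of its probe relative to the lesion is not known, so it does not check the labels. PYK10, which encodes the main beta-glucosidase of root ER bodies, was at -2.00, -2.03, -1.68 and -2.32. Both genes of the pair were less negative than PYK10 on every array. Array 3 was the least negative for AT1G30720 and PYK10, while array 1 was for AT1G30730.

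Genes of processes in which other BBE-like enzymes act were measured only in part. Of 12 listed genes for monolignol glycosides and lignin oxidation, 5 were measured, with a median of -0.27. Limma called 0 of these, beside 0.483% of all probes lower and 0.0133% higher. BGLU46, a beta-glucosidase of monolignol glucosides, was at -0.98, -0.83, -0.49 and -1.01 (mean -0.83, limma adjusted p = 0.0717), and UGT72E1 was at -0.27. In the fit without probes holding an exact 0, BGLU46 was called lower (limma adjusted p = 0.0126, and up to 0.447 over 10 alternatives). BGLU46 held no exact 0 itself, so its own ratios were the same in both fits. That fit called 2.99% of its probes lower and 0.617% higher. PRX71 (AT5G64120), a peroxidase, was the single measured gene of 11 for hydrogen peroxide handling. It was at -0.65, -0.89, -0.65 and -0.71 (mean -0.73, limma adjusted p = 0.0743). PRX71 also held no exact 0, and it was called lower in the same alternative fit (limma adjusted p = 0.0169, and up to 0.451 over 10 alternatives).

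AT1G56145, a receptor kinase gene and the single measured gene of 7 for the perception of wall fragments, was at -0.00. GLDH, of ascorbate synthesis and the single measured gene of 15 for related flavin oxidases, was at 0.12. None of the 8 listed genes of camalexin and indole cyanogenic metabolites had a named probe.

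Markers of other tissues were few. The 4 of 15 measured photosynthesis genes, which mark shoot tissue, had a median of -0.11, with array medians of 0.01, -0.44, -0.18 and 0.12. Of these, 0 were called, beside 0.483% of all probes lower and 0.0133% higher. LHCB4.1 was at -0.18 and PSAE-1 at -0.12. Of 7 root hair and epidermis markers 2 were measured, EXPA7 at 0.59 and EXPA18 at 0.38. Both were above 0 on all 4 arrays and not called (limma adjusted p = 0.102 and 0.394). EXPA7 was called higher in 1 of 10 alternatives, the fit without probes holding an exact 0 (limma adjusted p = 0.0357, and up to 0.451 over the 10). EXPA7 held no exact 0 itself, and that fit called 0.617% of its probes higher. GSO1, the single measured gene of 8 for endodermis and vasculature, was at 0.20. The part of root tissue makeup in the pair's ratios was not tested.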

How the data were processed

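Relative transcript levels were measured on 4 two-colour arrays. Per the labels, arrays 1 and 4 carried nai1-1 in Cy3 and arrays 2 and 3 in Cy5. The deposited values are log10 ratios, 1 per probe and array, which the authors made in Agilent Feature Extraction 7.1, according to the submitters' processing notes. Its background and dye settings are not given in those sources. In log2 units the array medians were 0, 0, -0.00 and 0. The scale (log10) and direction (Cy5 over Cy3) follow the software's convention. Over named probes, deposited values of arrays with opposite dyes correlated negatively (r of -0.75 to -0.33) and those with the same dyes positively (0.50 and 0.51). The arrays were therefore taken as not turned before deposition. Dye effects that differ between probes could give the same signs in turned values, which was not tested.

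Here log2 ratios were obtained by dividing by 0.301 and were turned to nai1-1 over Col-0, with no further normalization. All 22575 probes were fitted with limma 3.58.1 (R 4.3.3) with genotype and dye terms and Benjamini-Hochberg adjustment at 0.05. Control spots and dim spots were not removed. Probes were named by Entrez identifier through a RefSeq table for TAIR10.1: 9317 of 9335 matched, 40 probes had several genes and 13200 were not listed.

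The named genes are the pair, all other measured BBE-like genes, measured genes among 10 loci on each side, the 5 nearest by distance, up to 2 per other list by smallest p, NAI1 and PYK10. The pair and all 9 lists were chosen with earlier results of these data known. On simulated data for this comparison (22575 probes), 46 of 100 probes with a true change of 1 log2 unit were called, 90 of 100 with a change of 2, and 1 unchanged probe. The simulated noise was normal and independent between arrays, with a floor under each probe's SD. Exact 0 values, on which the real counts depended, were thus not imitated. Alternatives were leaving out probes with exact 0 values, centring, scaling, array weights, no dye term, averaging arrays in pairs and leaving out each array.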

Additional observations from a re-analysis of the deposited data

Results flagged for a closer look

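Of 51 probes of named and listed genes checked for 1 array far from the other 3 by Dixon's test, 1 was found, where chance gives about 1 in 20. AT1G54010, the gene nearest to AT1G30730 in ratio, was at -1.32 on array 1 against -1.75 to -1.71 on the others. Neither AT1G30720 nor AT1G30730 had an array apart by this test.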

How the results depend on the processing

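The mean ratio of AT1G30720 stayed within 1 SD of its value under all 10 alternatives, and that of AT1G30730 under 9 of 10. Leaving out probes with exact 0 values, centring, array weights, no dye term and averaging in pairs left these ratios at -1.54 and -1.60. With balanced dyes, near-equal weights and array medians near 0, those fits could barely move a probe's own ratio, so they are little check of it. Scaling the arrays to equal spread moved AT1G30730 to -1.68 (AT1G30720 -1.58). Without any 1 array AT1G30720 ran from -1.62 to -1.47, AT1G30730 from -1.64 to -1.55, and their difference from -0.03 to 0.14. The calls depended far more on the fit than the ratios did. Main counts were 109 probes lower and 3 higher. Without probes holding an exact 0 there were 645 and 133, 2 other BBE-like genes were lower instead of 0, and the dye term was called for 258 probes instead of 0. Without a dye term there were 333 and 61, with 2 other BBE-like genes lower. Scaling gave 0 and 0, and so did averaging arrays 1 and 2 and arrays 3 and 4 as replicates. Leaving out any 1 array, which leaves 1 residual degree of freedom, gave 0 lower and 0 higher. AT1G30720 and AT1G30730 were called in the fits that kept all 4 arrays unscaled and apart, and in none of the others. The cause of each change was not tested. Each array holds both genotypes, so its ratio is already a pair, and the fits on these ratios kept that pairing. Signal over background was not analysed here.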
